A study of Mus musculus with 4 samples.

Results

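Genes that the transcription factor NRF2 is known to switch on under oxidative stress were followed in a mouse mammary tumour cell line with and without added Jagged1. They were 10 of the 33677 gene symbols in the count table, namely Nqo1, Hmox1, Osgin1, Gclc, Gclm, Gsr, Txnrd1, Srxn1, Gsta4 and Gstm1. The genes were chosen by name and not by a measured value, but with earlier results of these data known. All 10 were found in the table and passed the filter on low counts. The line, PyMT-A, comes from a mammary tumour of the FVB/NJ strain; PyMT stands for polyoma middle T, a viral oncoprotein used to induce such tumours. Cells infected with the PMSCV-puro retrovirus, an empty vector with a puromycin resistance gene, gave 2 libraries (vector 1 and vector 2), and cells infected with PMSCV-Jagged1, which adds a membrane ligand of the Notch receptors, gave the other 2 (Jagged1 1 and Jagged1 2). All cells thus carried a retrovirus and were grown in serum-containing DMEM; whether each line is a clone or a pool, and whether replicates were separate cultures, is not given in the labels. The p-values therefore describe only the spread among these 4 libraries, which may be technical.

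NRF2, encoded by Nfe2l2, is held at a low level by KEAP1, an adaptor that hands it to a ubiquitin ligase. Oxidants and electrophiles modify KEAP1, and NRF2 then enters the nucleus, pairs with a small MAF protein and binds antioxidant response elements, while BACH1 competes for the same sites as a repressor. The targets make glutathione, keep glutathione and thioredoxin reduced, repair oxidised peroxiredoxins, detoxify quinones, break down haem and conjugate electrophiles, and tumour cells often depend on them.

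Libraries held between 12136227 and 20835208 counts, and the 10 genes together took between 0.0855% and 0.1% of them. Jag1, the check of the labels, was at 10.5 and 9.12 CPM (the count scaled to a common library size) in the vector libraries and at 274.7 and 324.5 CPM in the Jagged1 libraries, which is 4.93 ± 0.20 (± SE) as a log2 fold change, with an adjusted p of 0.0111 by edgeR's quasi-likelihood test and Benjamini-Hochberg adjustment. This adjusted p was 0.24 without vector 1 and 0.153 without vector 2. The epithelial markers Krt8, Krt18, Epcam and Cdh1 stood between 556.6 and 1190 CPM in every library, whereas Krt19 and Krt5 were at or near 0. Krt14, another keratin gene, was at 453.4 and 224.99 CPM in vector 1 and 2 and at 741.4 and 356.5 CPM in Jagged1 1 and 2. Krt7 was at 2446.2 and 1521.7 CPM in vector and at 1732.7 and 1043.9 CPM in Jagged1 cells. Both were thus higher in replicate 1 of each line, as were 34.1% of all tested genes. Krt8, Krt18 and Epcam were too, Epcam by little in Jagged1 cells (965.2 and 953.9 CPM). Cdh1 was not, at 561.8 CPM in Jagged1 1 and 593.9 CPM in Jagged1 2. Trp63 (19.7 CPM) and Elf3 (50.1 CPM) were highest in Jagged1 2. Of the T cell markers, 4 of 5 were at 0 in all libraries, and the leukocyte marker Ptprc stayed at or below 0.0814 CPM. Fibroblast markers summed to 4.63 and 7.25 CPM in vector and to 10.7 CPM in Jagged1 1, against 69.9 CPM in Jagged1 2, mainly from the collagen genes Col1a1 (27.2 CPM) and Col1a2 (20.2 CPM, and 0 counts in the other libraries); Lum was at 0 throughout. Among macrophage and leukocyte markers Cd14 was the most abundant, at 208, 227.9, 172.5 and 386.2 CPM in vector 1, vector 2, Jagged1 1 and Jagged1 2, and C1qa was at 0 in all libraries. Lyz2, the macrophage lysozyme gene, had 0, 71, 0 and 89 counts in the same order, Adgre1 had 0, 6, 0 and 16 and Cd68 had 15, 32, 3 and 22. The endothelial marker Cdh5 had 6, 32, 10 and 84 counts. These 4 markers were thus higher in replicate 2 of each line. By CPM Cd14, Csf1r, Itgam, Ptprc, Kdr and Tek were too, all but Cd14 at low counts. In vector cells Pecam1 (4 and 1 counts), Vwf (2 and 1) and Fcgr1 (6 and 3) went the other way, and Tie1 was at 0 throughout. The part of these markers in the results was not tested.

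The DNA around the start sites shows where some of these genes carry the letters that NRF2 or the related AP-1 factors are known to bind. RefSeq promoter windows (GRCm38.p6, 250 bases before to 50 after a start) were matched for 6 of the 10 genes, with 9 windows in all. They were searched on both strands for TGACNNNGC, the core of the antioxidant response element, and for TGANTCA, the AP-1 site, which shares its first letters with that core. The core was present in 3 of the 9 windows, in Gclm, Srxn1 and Txnrd1, and in 12.4% of all 32851 windows. The AP-1 letters were present in 2 of the 9 windows, in Osgin1 and Srxn1, and in 7.81% of all windows. Hmox1, Gclc, Gsr and Gsta4 had no window, and sites outside the windows were not searched. The matches in Txnrd1 and Osgin1 lie inside the gene spans given further below, near a start other than the gene's first base. A match describes the reference sequence of the C57BL/6J strain and was not tested for binding; the matched letters are in capitals below, each read 5′ to 3′ on the strand that carries them.
Srxn1, core at chr2:152105542-152105570, minus strand: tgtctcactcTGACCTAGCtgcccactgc
Gclm, core at chr3:122245413-122245441, minus strand: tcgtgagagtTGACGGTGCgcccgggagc
Txnrd1, core at chr10:82859104-82859132, minus strand: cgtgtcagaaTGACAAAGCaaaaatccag
Osgin1, AP-1 letters at chr8:119437040-119437066, plus strand: gggcccctgcTGACTCAcgcttatgaa
Srxn1, AP-1 letters at chr2:152105412-152105438, plus strand: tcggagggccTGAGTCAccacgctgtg
Srxn1, further AP-1 letters at chr2:152105469-152105495, plus strand: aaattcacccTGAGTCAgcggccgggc

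The comparison of Jagged1 with vector cells gave no change in any of the 10 genes that passed the test. Adjusted over all 13299 tested genes, 0 of the 10 were called by edgeR, where 0.00752% of all tested genes were (1 gene, Jag1), and 0 of the 10 by DESeq2, where 0.353% were. Before adjustment 1 of the 10, Osgin1, had a p under 0.05 in edgeR, a lower value, against 3.96% of all tested genes in either direction and 2.15% with lower values. The same gene did so in DESeq2, against 3.71%. The values of 7 genes were lower and those of 3 higher in Jagged1 cells, with a median log2 fold change of -0.22, while 50.5% of all tested genes had negative values and their median was -0.0025. The median of the 10 was -0.045 without vector 1 and 0.022 without Jagged1 2, so its size and sign depended on single libraries. Both Jagged1 libraries were below the vector pair in Osgin1 and Gclm, or 2 of 10 (15.1% of all tested genes), and above it in Gsta4, or 1 of 10 (13.9%). In the other 7 genes the lines overlapped.

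**Figure D1:**
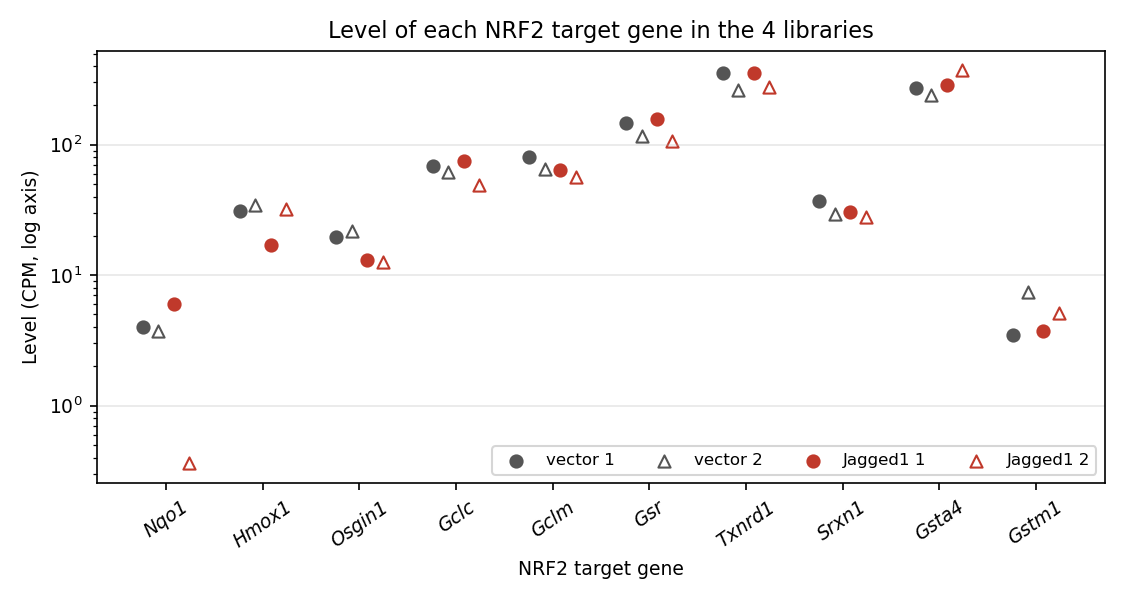
Level of each gene in CPM (log axis) in the 4 libraries; grey marks are vector, red marks Jagged1, filled circles replicate 1 and open triangles replicate 2, with 1 point per library and no error bar. Nqo1 in Jagged1 2 lies at 0.361 CPM, apart from the 3.75 to 6.05 CPM of the other libraries. Osgin1, Gclm and Gsta4 show the lines without overlap, Gclm and Gsta4 by a narrow margin.

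Nqo1 (chromosome 8, 107388225 to 107403206, minus strand) encodes the quinone reductase that serves as the standard readout of NRF2 activity. Its level was 4.03 CPM in vector 1, 3.75 CPM in vector 2, 6.05 CPM in Jagged1 1 and 0.361 CPM in Jagged1 2, from 61, 46, 125 and 5 reads. The Jagged1 libraries were thus the highest and the lowest of the 4, on either side of the vector pair. Exact 95% Poisson intervals, which cover counting error only, ran from 5.04 to 7.21 CPM in Jagged1 1 and from 0.117 to 0.843 CPM in Jagged1 2, so the 16.8-fold gap between replicates of the same line was larger than counting error. Of the 13299 tested genes, 33 (0.248%, Nqo1 included) were at least as far apart between the Jagged1 libraries, 5 of them lower and 28 higher in Jagged1 2. The log2 fold change between lines was -0.25 ± 1.05 (SE; edgeR adjusted p = 1). It was -3.40 without Jagged1 1 (adjusted p = 0.0156, a call) and 0.64 without Jagged1 2. In Jagged1 2 the sum of the fibroblast markers was also highest, as given above. Not every marker followed the sum, as Pdgfra was at 8.03 CPM in Jagged1 1 and 6.72 CPM in Jagged1 2. The part of these markers in the Nqo1 value was not tested.

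Hmox1 (chromosome 8, 75093621 to 75100589, plus strand) encodes haem oxygenase 1, which opens haem into biliverdin, iron and carbon monoxide and is repressed by BACH1. It stood at 31.0 and 34.5 CPM in vector 1 and 2, at 16.9 CPM in Jagged1 1 and at 32.0 CPM in Jagged1 2. Only Jagged1 1 was low; Jagged1 2 lay between the vector libraries. The log2 fold change was -0.43 ± 0.32 (adjusted p = 1, edgeR), and -0.95 without Jagged1 2 (adjusted p = 0.198) but -0.034 without Jagged1 1. Hmox1 and Nqo1 thus each had 1 Jagged1 library that stood apart, and it was not the same library.

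Osgin1 (chromosome 8, 119434124 to 119446256, plus strand), an oxidative stress gene whose product restrains growth, had the most even difference between the lines. Its level was 19.7 and 21.7 CPM in vector 1 and 2 against 13.0 and 12.6 CPM in Jagged1 1 and 2. The lines did not overlap, and replicates lay closer together than the lines did. The mean was 20.7 ± 1.44 CPM for vector and 12.8 ± 0.286 CPM for Jagged1 (SD, n = 2 libraries each), a log2 fold change of -0.70 ± 0.19. This had an unadjusted p of 0.0113 in edgeR's quasi-likelihood test and an adjusted p of 0.976, so it was not called. With 1 library left out the value stayed between -0.75 and -0.63, with adjusted p-values of 0.438 or more. Of all tested genes, 7.39% had a log2 fold change at least as large in size.

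Glutathione synthesis starts with glutamate-cysteine ligase, a pair of proteins in which Gclc encodes the catalytic and Gclm the modifier subunit. Gclc (chromosome 9, 77754535 to 77794485, plus strand) was at 68.2 and 62.0 CPM in vector 1 and 2 and at 75.1 and 48.9 CPM in Jagged1 1 and 2. As in Nqo1, the Jagged1 libraries were the highest and the lowest, and the log2 fold change was -0.068 ± 0.24 (edgeR adjusted p = 1), with -0.41 without Jagged1 1 and 0.21 without Jagged1 2. Gclm (chromosome 3, 122245557 to 122270732, plus strand) was at 81.0 and 65.1 CPM in vector and at 63.6 and 56.3 CPM in Jagged1 cells. Its Jagged1 libraries were both lower, but Jagged1 1 missed vector 2 by less than the gap between the vector libraries. The log2 fold change was -0.28 ± 0.18 (edgeR adjusted p = 1), -0.095 without vector 1 and -0.44 without vector 2. Of the exon bases of Gclm, 4.71% overlap the antisense transcript Gm17494, whose reads cannot be told apart from those of Gclm without strand, and 3.88% overlap the pseudogene Gm6061 on the same strand.

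Gsr, Txnrd1 and Srxn1 keep thiols reduced: Gsr encodes glutathione reductase, Txnrd1 the cytosolic thioredoxin reductase, and Srxn1 sulfiredoxin, which revives overoxidised peroxiredoxins. Gsr (chromosome 8, 33652523 to 33698163, plus strand) was at 146.7 and 116.4 CPM in vector 1 and 2 and at 157.1 and 106 CPM in Jagged1 1 and 2. Txnrd1 (chromosome 10, 82833951 to 82897712, plus strand) was at 352.4 and 263.7 CPM in vector and at 355.3 and 275.1 CPM in Jagged1 cells. In both genes the libraries sorted by replicate number and not by line, replicate 1 being the higher in each line. Their line means were almost equal, with log2 fold changes of 0.00076 ± 0.24 for Gsr and 0.033 ± 0.22 for Txnrd1 (edgeR adjusted p = 1 for each). Leaving out 1 library moved Gsr between -0.31 and 0.26 and Txnrd1 between -0.17 and 0.28. Srxn1 (chromosome 2, 152105516 to 152111376, plus strand) was at 37.3 and 29.4 CPM in vector and at 30.4 and 27.7 CPM in Jagged1 cells. Here vector 1 alone was high, and the log2 fold change of -0.20 ± 0.19 (edgeR adjusted p = 1) was 0.0055 without it and -0.37 without vector 2.

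Gsta4 and Gstm1 encode glutathione transferases of the alpha and mu classes, the former known for clearing 4-hydroxynonenal, a product of lipid peroxidation. Gsta4 (chromosome 9, 78182774 to 78209349, plus strand) was at 270.2 and 240.9 CPM in vector 1 and 2 and at 288.8 and 371.1 CPM in Jagged1 1 and 2. Both Jagged1 libraries were higher, Jagged1 1 by a margin smaller than the gap between the vector libraries. The log2 fold change was 0.37 ± 0.19 (unadjusted p = 0.1, adjusted p = 1, edgeR), and 0.18 without Jagged1 2. Gstm1 (chromosome 3, 108012255 to 108017973, minus strand) was at 3.50 and 7.49 CPM in vector and at 3.73 and 5.13 CPM in Jagged1 cells. The vector libraries enclosed the Jagged1 libraries, and the log2 fold change of -0.31 ± 0.46 (edgeR adjusted p = 1) ran from -0.74 when vector 1 was left out to 0.32 when vector 2 was, and stood at -0.089 without Jagged1 1. Of the distinct 50-base windows in Gstm1 transcripts, 18.9% also occur in transcripts of other genes, among them Gstm3 (8.16%) and the pseudogene Gstm2-ps1 (14.1%), so its count is uncertain, whereas 0% did so in Gsta4.

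**Figure D2:**
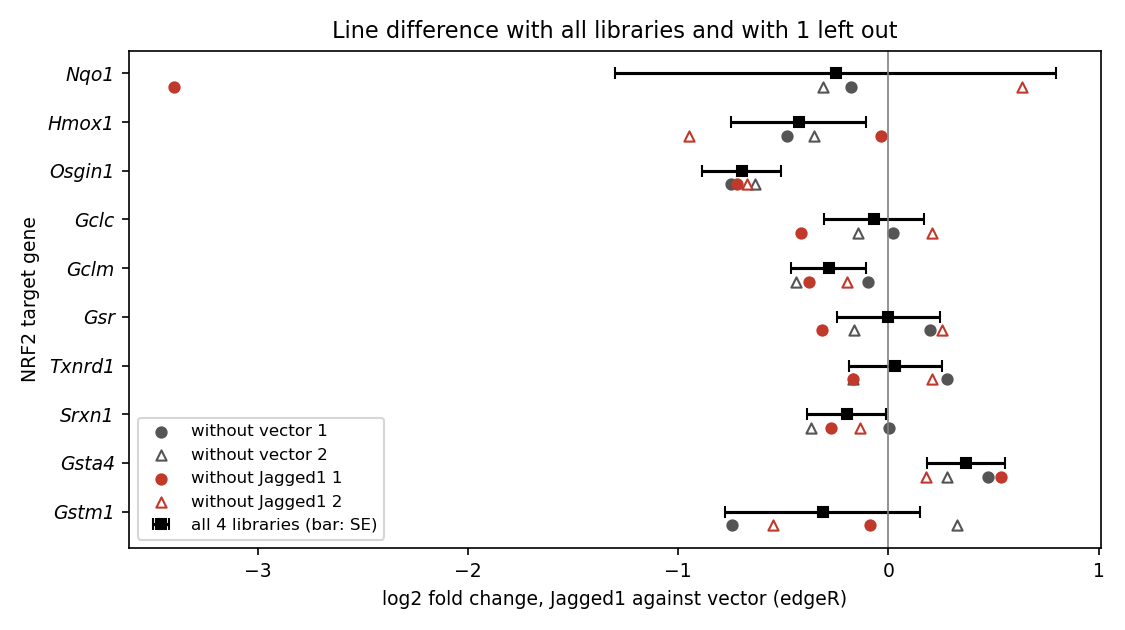
Log2 fold change of each gene, Jagged1 against vector, from edgeR: black squares use all 4 libraries with bars for the standard error, and the marks beneath leave out the named library. Osgin1 stays between -0.75 and -0.63, whereas Nqo1 runs from -3.40 to 0.64.

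Replicate gaps exceeded the difference between the lines about as often in the 10 genes as in all tested genes. In size the gaps between the Jagged1 libraries varied widely. Of all tested genes, 0.248% were at least as far apart as Nqo1 and 90.9% as far as Osgin1. The gap between the 2 Jagged1 libraries exceeded the log2 fold change in 6 of 10 genes, against 66.6% of all tested genes, and the gap between the vector libraries did so in 6 of 10, against 62.4%. Only in Osgin1 and Gsta4 was the log2 fold change larger than both gaps, and for Gsta4 the margin was small, at 0.37 against 0.36. In 6 genes, Nqo1, Gclc, Gclm, Gsr, Txnrd1 and Srxn1, replicate 1 was the higher in both lines, against 34.1% of all tested genes. Hmox1 and Gstm1 were lower in replicate 1 of both lines, against 34.3%. Within replicate numbers the log2 difference between lines had opposite signs in 4 of the 10, Nqo1, Gclc, Gsr and Gstm1, and in 43.7% of all tested genes. Equal numbers are not stated to mark a shared batch.

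**Figure D3:**
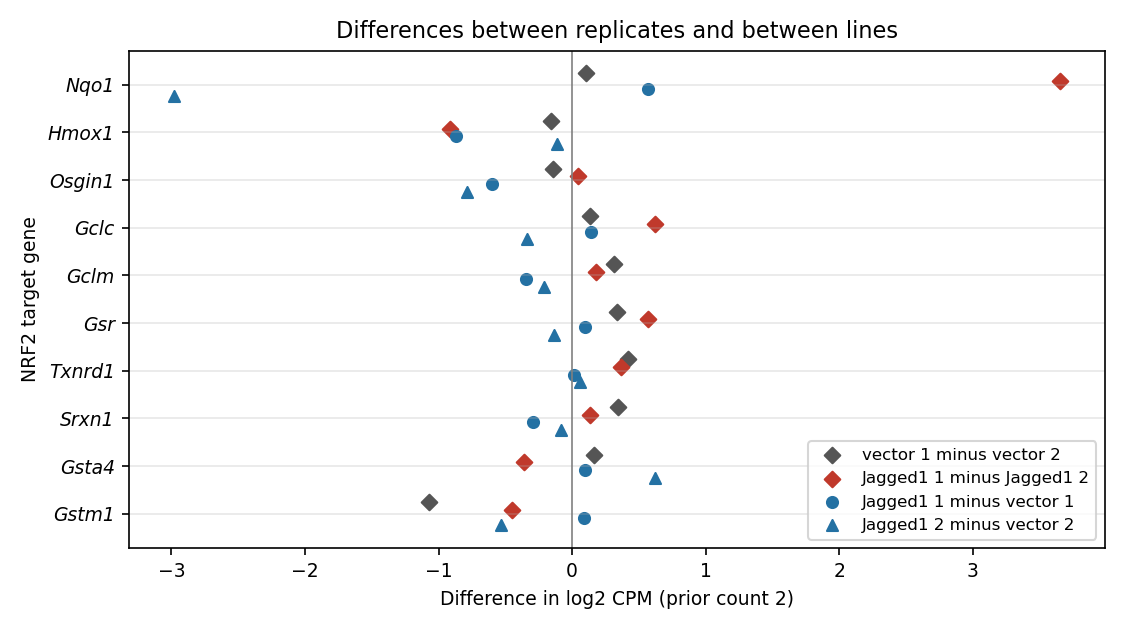
Differences in log2 CPM (prior count 2) for each gene: diamonds compare the replicates of a line (grey vector, red Jagged1), and blue marks compare Jagged1 with vector for replicate 1 (circle) and replicate 2 (triangle). For Nqo1 the Jagged1 replicates differ by 3.66, and for Osgin1 by 0.045, while both blue marks of Osgin1 are negative, at -0.60 and -0.78.

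Levels of different genes were compared per kilobase of merged exon (GENCODE M21, GRCm38). In vector cells Gsta4 was highest, at 201.9 ± 16.4 CPM per kb (SD, n = 2), followed by Gsr at 47.8 ± 7.79 and Txnrd1 at 43.5 ± 8.84 CPM per kb, whose libraries overlapped. Hmox1 (18.7 ± 1.42) and Gclc (17.3 ± 1.16 CPM per kb) overlapped next, and so did Srxn1 (11.8 ± 1.98) and Gclm (11.6 ± 1.79 CPM per kb). Osgin1 stood at 7.75 ± 0.540 CPM per kb, and Gstm1 (3.73 ± 1.91) and Nqo1 (2.50 ± 0.131 CPM per kb) were the lowest, again with overlap. In Jagged1 cells Gsta4 was also first, at 260.6 ± 46.0 CPM per kb, and Nqo1 last, at 2.06 ± 2.59 CPM per kb. Gstm1, at 3.01 ± 0.672 CPM per kb in Jagged1 cells, lay between the Nqo1 values of Jagged1 1 (3.90) and Jagged1 2 (0.232), so the order of these genes is not set in either line.

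The genes that set NRF2 activity were expressed in all libraries, and none of the 10 tested passed the threshold in edgeR. Nfe2l2, the gene of NRF2 itself, was at 157.9 and 175.6 CPM in vector 1 and 2 and at 117 and 165.9 CPM in Jagged1 1 and 2, overlapping between lines (log2 fold change -0.24 ± 0.21). Keap1, its inhibitor, was at 84.0 and 71.6 CPM in vector and at 66.1 and 69.2 CPM in Jagged1 cells (-0.20 ± 0.16), with both Jagged1 libraries lower. Bach1, the competing repressor, was the reverse, at 64.7 and 70.1 CPM in vector and at 83.2 and 86.8 CPM in Jagged1 cells (0.34 ± 0.15, unadjusted p = 0.067). Its value stayed between 0.30 and 0.39 with any 1 library left out. The small MAF genes Maff (-0.26 ± 0.18), Mafg (-0.096 ± 0.15) and Mafk (-0.35 ± 0.17) had both Jagged1 libraries lower, as did Sqstm1 (-0.34 ± 0.20), which encodes an autophagy adaptor that binds KEAP1. Without vector 1 Maff was at -0.074 and Keap1 at -0.061, and without Jagged1 1 Sqstm1 was at -0.14 and Nfe2l2 at -0.0072. Without Jagged1 2 Nfe2l2 was at -0.51 and Sqstm1 at -0.58. The Sqstm1 count is uncertain, as 15.5% of the 50-base windows of its transcripts recur in other genes. Cul3 and Rbx1, the scaffold and RING subunits of the KEAP1 ligase, were at 0.13 ± 0.14 and 0.12 ± 0.16, and the related factor gene Nfe2l1 at -0.12 ± 0.19. Without Jagged1 1 these were at 0.080, 0.0045 and 0.061, and Mafg was at -0.044 without vector 1. In all, both Jagged1 libraries were lower in 5 of these 10 genes and higher in 2, against the 15.1% and 13.9% given above.

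Of 85 further genes of the antioxidant system, placed in 7 lists by role with earlier results of these data known, 74 were tested. Of these 74, 0 were called by edgeR, 31 having positive and 43 negative values. Before adjustment 5 of them had a p under 0.05, against 3.96% of all tested genes. Both Jagged1 libraries were lower in 17 of the 74, against 15.1% of all tested genes, and higher in 16, against 13.9%. The named genes are those with the smallest p in each list.

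The genes for glutathione supply and for glutathione peroxidases had negative values in all 11 tested members, where 50.5% of all tested genes did, with a median log2 fold change of -0.16. In 4 of the 11 both Jagged1 libraries were lower, against 15.1% of all tested genes. The lines overlapped in the other 7, as in 9433 of all 13299 tested genes. Between the replicate 2 libraries Glrx (0.34), Gpx4 (0.084) and Gpx1 (0.018) had positive log2 differences, so their signs depended on the library. Of the 50-base windows of Gpx4 transcripts 34.7% recur in other genes, so its count is uncertain. Slc7a11, the cystine importer that feeds glutathione synthesis, was at 62.6 and 66.3 CPM in vector 1 and 2 and at 28.9 and 49.4 CPM in Jagged1 1 and 2. Its log2 fold change was -0.72 ± 0.28 (edgeR adjusted p = 1), -0.38 without Jagged1 1 and -1.15 without Jagged1 2. Slc3a2, the partner chain of that importer, was at -0.38 ± 0.20, and at -0.18 without Jagged1 1 and -0.61 without Jagged1 2. Chac1, which breaks glutathione down, was at 38.6 and 45.0 CPM in vector and at 19.0 and 19.4 CPM in Jagged1 cells, so the lines stood clearly apart. Its log2 fold change was -1.12 ± 0.17, with an adjusted p of 0.712 in edgeR and 0.00585 in DESeq2, a call. Genes for cystine import and for glutathione breakdown thus both had lower values, while the ligase subunit genes Gclc and Gclm were at the smaller values given above.

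Glutathione transferase genes went either way, 7 higher and 7 lower of 14 tested, with a median of 0.0041. Mgst1, the microsomal transferase gene, was at 86.3 and 92.0 CPM in vector 1 and 2 and at 109.95 and 161.9 CPM in Jagged1 1 and 2 (log2 fold change 0.61 ± 0.22, adjusted p = 1, edgeR). It was at 0.30 without Jagged1 2. Gstm2 was at 0.72 ± 0.40 and Gstt2 at -1.29 ± 0.82, both below 5 CPM in every library. Gstm2 was at 0.44 without Jagged1 2, and Gstt2 at -0.48 without Jagged1 1 and -2.84 without Jagged1 2. Of the other alpha class genes, Gsta1, Gsta2 and Gsta3 did not exceed 0.244 CPM in any library. Of the 50-base windows of Gsta1 transcripts 90.5% recur in other genes, as do 49.8% of those of Gsta2, so the counts of these genes are uncertain.

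In the thioredoxin system 7 genes were higher and 9 lower of 16 tested (median -0.023). The methionine sulfoxide reductase genes Msrb1 (0.47 ± 0.22) and Msra (-0.70 ± 0.40) had opposite signs, and the sestrin gene Sesn3 was at 0.45 ± 0.27. None passed the test, and without Jagged1 2 Msrb1 was at 0.19 and Sesn3 at 0.21. NADPH, the reductant that Gsr and Txnrd1 consume, is supplied by enzymes whose genes were 3 higher and 5 lower of 8 tested (median -0.088). Tkt, of the pentose phosphate pathway, was at -0.28 ± 0.15, Idh1 at 0.26 ± 0.15 and G6pdx at -0.15 ± 0.16, each with an edgeR adjusted p of 1. G6pdx was at -0.046 without Jagged1 1 and -0.27 without Jagged1 2. Its count is uncertain, as 16.9% of the 50-base windows of its transcripts recur in other genes.

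Of the haem and iron genes, 4 were higher and 4 lower of 8 tested (median -0.0085). Slc40a1, which encodes the iron exporter ferroportin, was at 4.83 and 5.37 CPM in vector 1 and 2 and at 9.10 and 9.75 CPM in Jagged1 1 and 2. The lines did not overlap, and replicates were close. Its log2 fold change was 0.89 ± 0.27 (unadjusted p = 0.0179, adjusted p = 1, edgeR) and stayed between 0.83 and 0.96 with any 1 library left out. The transferrin receptor gene Tfrc was at 0.33 ± 0.18 and the ferritin light chain gene Ftl1 at -0.15 ± 0.18; 58.4% of the 50-base windows of Ftl1 transcripts recur in other genes, so its count is uncertain. Leaving out Jagged1 1 put Tfrc at 0.14 and leaving out Jagged1 2 put it at 0.49, while Ftl1 ran between -0.32 without vector 2 and 0.045 without vector 1.

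Among detoxification and export genes 7 were higher and 6 lower of 13 tested. Aldh3a1, an aldehyde dehydrogenase gene, was at 12.7 and 15.4 CPM in vector 1 and 2 and at 47.8 and 28.2 CPM in Jagged1 1 and 2. Both Jagged1 libraries were higher, with a log2 fold change of 1.44 ± 0.30. The adjusted p was 0.914 in edgeR, 0.0151 in DESeq2 and 0.0153 in edgeR without Jagged1 2, the last 2 being calls. Ptgr1, the gene of a prostaglandin reductase, was at 0.24 ± 0.15 and the exporter gene Abcc1 at -0.23 ± 0.15.

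Of the 4 superoxide dismutase and catalase genes, 3 were higher and 1 lower. Sod2, the mitochondrial dismutase gene, was at 60.7 and 65.7 CPM in vector 1 and 2, at 48.7 CPM in Jagged1 1 and at 138.5 CPM in Jagged1 2. As for Nqo1, the Jagged1 libraries enclosed the vector pair, but in Sod2 it was Jagged1 2 that was high. Of the 50-base windows of Sod2 transcripts 21% recur in other genes, so its count is uncertain. The log2 fold change was 0.56 ± 0.47 (edgeR adjusted p = 1), 1.13 without Jagged1 1 (adjusted p = 0.00537, a call) and -0.37 without Jagged1 2. Sod3, the extracellular form, was at 10.2, 8.88, 1.74 and 8.23 CPM in the same order of libraries, low in Jagged1 1 (-0.95 ± 0.70). Without Jagged1 1 Sod3 was at -0.21, and without Jagged1 2 at -2.45 (edgeR adjusted p = 0.0524). Cat, for catalase, was at 0.22 ± 0.15.

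**Figure D4:**
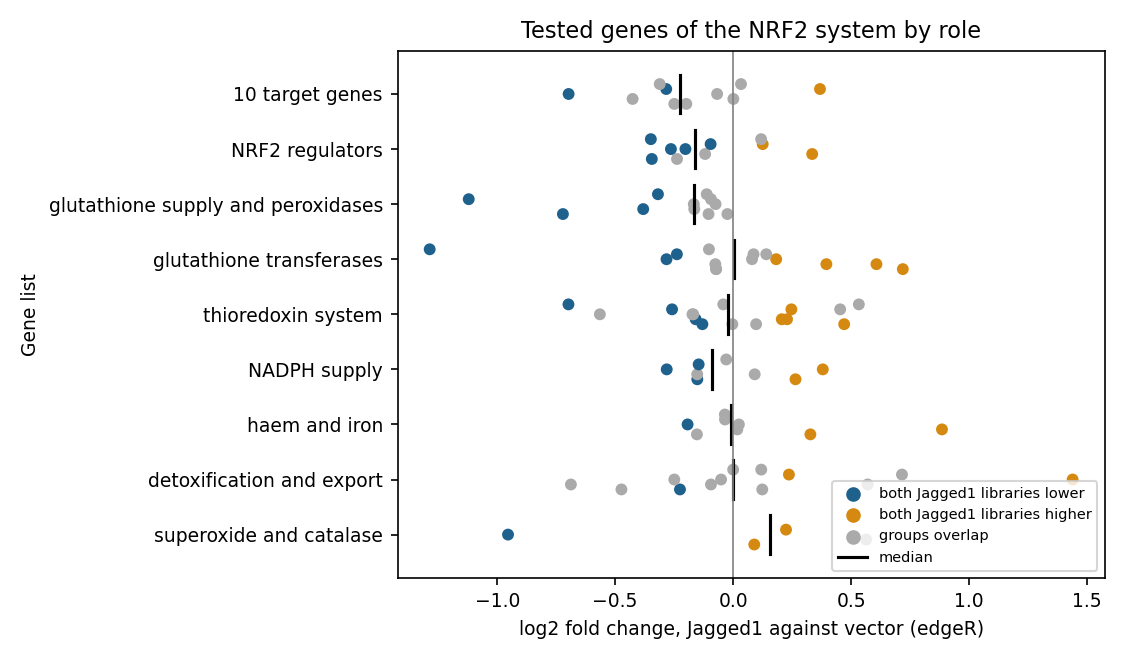
Log2 fold change of each tested gene by list, coloured by whether both Jagged1 libraries lay on the same side of the vector pair; black lines are medians. All 11 tested glutathione supply and peroxidase genes lie below 0, and the 10 targets spread from -0.70 to 0.37.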

How the data were processed

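Poly(A) RNA was sequenced after Trizol extraction in 4 libraries, 2 from each cultured line, per the labels' protocols. The authors deposited raw read counts per gene symbol, made with STAR 2.6.0c and featureCounts 1.6.2 on mm10 (GRCm38), per the submitters' processing notes; the annotation release and the strand setting were not given in the sources used. Counts do not separate the viral Jagged1 insert from cellular Jag1. In 27 rows a symbol had become a date; none is named here.

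Libraries were grouped by their titles. Genes were filtered with filterByExpr (minimum count 10), which left 13299, scaled with TMM and tested with edgeR 4.0.16 (quasi-likelihood F test, robust and legacy fit, R 4.3.3), adjusted by Benjamini-Hochberg over all tested genes at 0.05. SE is the absolute log2 fold change over the square root of F. CPM are relative to TMM-scaled library sizes; a floor of 3 counts equals 0.145 to 0.244 CPM, for counting error only. The fit was tested on counts simulated for this comparison over 13092 genes: it called 42 of 50 genes set to a log2 change of -1, 40 of 50 set to 1, 50 of 50 set to -2, 50 of 50 set to 2, and 9 of 12892 left unchanged. Every simulated gene had the same dispersion, estimated with the replicate number in the model, and only genes with higher counts were changed. The share of real changes that would be called can therefore differ from these rates. An exact permutation test of 2 against 2 libraries cannot go below p = 0.333 and was not run. Alternatives were DESeq2 1.42.0, limma-voom (limma 3.58.1), other scaling and filters, each library left out and the replicate number as a block.

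Named are the 10 genes, Jag1, the NRF2 regulators and, from every other list, genes past the threshold and the 3 with the smallest p. The genes and lists were chosen with earlier results of these data known.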

Additional observations from a re-analysis of the deposited data

How the results depend on the processing

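Of 108 values of the 10 genes under the alternatives, 95 kept their sign and stayed uncalled, 12 changed sign and 1 became a call, Nqo1 without Jagged1 1. The number of the 10 called was otherwise 0 and lay between 0 and 1 with 1 library left out. Their median log2 fold change lay between -0.29 and 0.022 in the same fits. Over all genes, 47 were called by DESeq2 (19 higher), 169 without the low-count filter (101 higher) and between 0 and 193 with 1 library left out; the 0 calls came without vector 1 and without vector 2, where 226 and 676 genes had an unadjusted p under 0.05, and 193 (142 higher) and 49 (17 higher) came without Jagged1 1 and without Jagged1 2. With the replicate number as a block edgeR called 17 genes (7 higher, 0.128%) and 0 of the 10, Osgin1 being nearest (-0.69 ± 0.17, adjusted p = 0.241). The deviations of same-numbered libraries had a Pearson correlation of 0.425 across genes, which are not independent replicates, but with 2 pairs and no label to state it the numbers were not taken to pair the libraries. With 1 library left out, Nqo1 lay between -3.40 and 0.64 (positive without Jagged1 2), Gclc between -0.41 and 0.21 (positive without Jagged1 2 and, at 0.025, without vector 1), Txnrd1 between -0.17 and 0.28 (negative without vector 2 and without Jagged1 1, at -0.17 each), Srxn1 reached 0.0055 without vector 1, Gsr lay between -0.31 and 0.26 (negative without Jagged1 1 and, at -0.16, without vector 2), Gstm1 between -0.74 and 0.32 (positive without vector 2), Nfe2l1 between -0.32 and 0.061 (positive without Jagged1 1), Ftl1 between -0.32 and 0.045 (positive without vector 1) and Sod2 between -0.37 and 1.13 (negative without Jagged1 2). Gsr was also at -0.018 in limma-voom, -0.0027 without the low-count filter and -0.017 with the replicate block. The response element core with 1 further base, an A at its 3′ end, was found in 1 of the 6 genes with a promoter window, Txnrd1, and in 3.04% of all windows. Chac1 was also called without the low-count filter (adjusted p = 0.000521) and without Jagged1 1 (0.0262), and Aldh3a1 without the low-count filter (2.33e-06) and without Jagged1 2 (0.0153). A lone library of a line was taken to vary like the others. Beyond these, the causes of the changes were not tested. Nqo1 and Gstm1, with 5 to 125 reads per library, had the lowest depth of the 10.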

Other observations

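Several further NRF2-linked genes, chosen after their values were seen, differed more between the Jagged1 libraries than between the lines. The same held for 66.6% of all tested genes, so it does not set these genes apart. Akr1b8, an aldo-keto reductase gene, was at 5.75 and 11.2 CPM in vector 1 and 2, at 0.871 CPM in Jagged1 1 and at 9.82 CPM in Jagged1 2. Like Hmox1 and Sod3, it was lowest in Jagged1 1. Ephx1, the microsomal epoxide hydrolase gene, was at 114.8 and 212.4 CPM in vector and at 79.6 and 276 CPM in Jagged1 cells. Replicate 2 was thus the higher in both lines, as in 34.3% of all tested genes. Adh7, an alcohol dehydrogenase gene, was at 41.1, 32.2 and 37.1 CPM in vector 1, vector 2 and Jagged1 1 and at 15.5 CPM in Jagged1 2, the library in which Nqo1 was lowest as well. None of the 3 was called by edgeR (adjusted p = 1 for each).

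Fth1, the ferritin heavy chain gene, had 1 read in vector 1, 1 in Jagged1 2 and 0 in the other libraries, which leaves it at or under the floor of 3 counts throughout. The light chain gene Ftl1, whose count is uncertain, had 7841, 5047, 9164 and 5428 reads in vector 1, vector 2, Jagged1 1 and Jagged1 2. Of the 50-base windows of Fth1 transcripts 1.59% recur in other genes. Whether the Fth1 count reflects its expression or how reads were assigned was not tested, so it does not show that the gene is silent.

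The mean centred log2 CPM of the 10 genes was 0.16 in vector 1, 0.12 in vector 2, 0.052 in Jagged1 1 and -0.33 in Jagged1 2. This profile rests on Nqo1, which was at 1.225 in Jagged1 1 and, from 5 reads, at -2.43 in Jagged1 2. Over the other 9 genes the means were 0.11, 0.069, -0.078 and -0.099 in the same order, an alternative chosen after seeing the data. By root-mean-square distance over the 4 libraries, the tested genes outside the lists that lay nearest to the profile of all 10 were Lrr1 (0.00908), Rbm43 (0.0218), Inafm2 (0.0226), Dgke (0.0254) and Phactr4 (0.0256). Of these 5 genes 0 were among the 5 nearest to the profile without Nqo1, which were Fbxo42 (0.00568), Gtf2e1 (0.00998), Itgb1bp1 (0.0103), Atp6v1c1 (0.0112) and Rnf115 (0.0141). The likeness to the 10 genes thus depends on Nqo1, and it has no test.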
